A study of Arabidopsis thaliana with 8 samples.

Results

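The genes described here encode proteins of the small subunit of the cytosolic ribosome in Arabidopsis thaliana. They were given by locus, as 47 genes of small-subunit proteins. A gene was kept where the array's gene table gives a probe set to that gene alone, which held for 28 of the 47. Each of the 28 has 1 such probe set. Of these, 27 passed the filter on low signal and were tested, among 13647 probe sets tested in all. The exception, AT5G09500 of RPS15, had intensities between 0.3 and 9.1 on the 8 arrays and was left out of every test. Another 6 genes lie only on 4 probe sets that the table shares between several ribosomal protein genes, and 13 have no named probe set, among them every listed gene of RPSa, RPS6 and RPS18.

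The plants were rosettes of the starchless pgm mutant in the Col-0 accession, aged 5 to 6 weeks and lacking plastidial phosphoglucomutase, so that leaves make almost no starch to draw on at night. Whole rosettes were labelled by hour, with 1 array each at 04h, 08h, 16h and 20h and 2 arrays, A and B, at each of 12h and 00h. Each sample pooled 15 rosettes. When the light came on and went off is not in the labels, and neither is the origin of the paired arrays, so the p-values speak of the spread among arrays, which can be technical. PGM1 itself has no named probe set here. Every group carries the pgm mutation, and no wild type enters the comparisons here.

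The small subunit binds mRNA and the initiator tRNA and checks the pairing of codon and anticodon, and the large subunit joins amino acids into protein. In plants each protein of the cytosolic ribosome is encoded by a small family of closely similar paralogues, and a small subunit needs 1 copy of each of its proteins. Making ribosomes takes a large part of a growing cell's carbon, nitrogen and phosphate, and in plants as in yeast it is coupled to sugar supply through the TOR kinase. In leaves protein synthesis is known to run faster in the light than in the dark.

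Values are intensities on a linear scale, and changes are differences in log2(intensity + 16), which understate the change of dim probe sets. A gene is said to have risen or fallen where limma's adjusted p over all 13647 probe sets was below 0.05. Probe sets differ in how they respond to their transcript, so levels are not compared between genes. The table gives each probe set to 1 gene, and whether a probe set also takes up the transcript of a close paralogue was not tested. In whole rosettes, fewer cells that express a gene and less RNA per cell cannot be told apart.

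The arrays 12h A and 00h A had hybridisation controls, RNAs added at a fixed amount, at 594.2 and 577.3, against 153.8 to 191.6 on the other 6 arrays. Results for 12h against 00h are therefore also given for the A arrays and the B arrays apart. The ratio of 3' to 5' actin probe sets, a measure of RNA integrity, was 3.11 and 3.19 at 12h against 2.69 and 2.74 at 00h, and its part in the differences between these hours was not tested. On the other 4 arrays it was 2.55 at 04h, 2.53 at 08h, 2.29 at 16h and 2.57 at 20h. The probe set for 25S rRNA had 869.3 on 12h A and 65.8 on 12h B, against 2995.5 on 00h A and 256.3 on 00h B, and 243.2 to 496.9 on the other 4 arrays. It was lower at 12h in both pairs and 00h A stood far above every other array, and its part in the results was not tested. Of 13 leaf markers 4 have a named probe set, and their summed intensity was 8432.5 and 11683.4 at 12h against 9607.8 and 15840.9 at 00h. Markers of dividing cells and of flowers have none. Of 7 root markers 2 have a named probe set. The tested one, PYK10, encoding a root beta-glucosidase, had 120.2 and 126.8 at 12h against 271.8 and 300.0 at 00h, and its part in the results was not tested.

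At 12h the small-subunit genes stood higher than at 00h. Of the 27 tested, 17 rose and 0 fell (limma adjusted p; at an unadjusted p under 0.05, 19 were higher and 0 lower), which is 63.0% against 21.9% of all tested probe sets that rose and 18.6% that fell. Their median change was 0.88 on the log2 scale, against 0.057 over all tested probe sets. The 12h arrays lay above the 00h arrays without overlap for 25 of the 27, against 38.1% of all. Among the genes shown, changes ran from 0.17 for AT3G02560 of RPS7 to 2.12 for AT3G57490 of RPS2. Between the A arrays alone the median change was 0.98 and between the B arrays alone 0.86, and all 27 changes were positive in both. Among all 13647 tested probe sets, 7107 changes were positive between the A arrays and 7319 between the B arrays. Here and below, counts at an unadjusted p were not made over all probe sets, so they have no share beside them. With the hybridisation-control batch as a block 23 of the 27 rose, against 27.4% of all tested probe sets. The genes gained there include AT2G36160 (limma adjusted p = 0.0103), AT2G41840 (0.011), AT4G34670 (0.02), AT5G15200 and AT5G35530 (0.00982). With each array scaled to the same median, the change over all tested probe sets moved to -0.10 and the shares to 17.2% higher and 23.5% lower. Of the 27 genes, 14 rose and 0 fell there, with a median of 0.69.

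**Figure D1:**
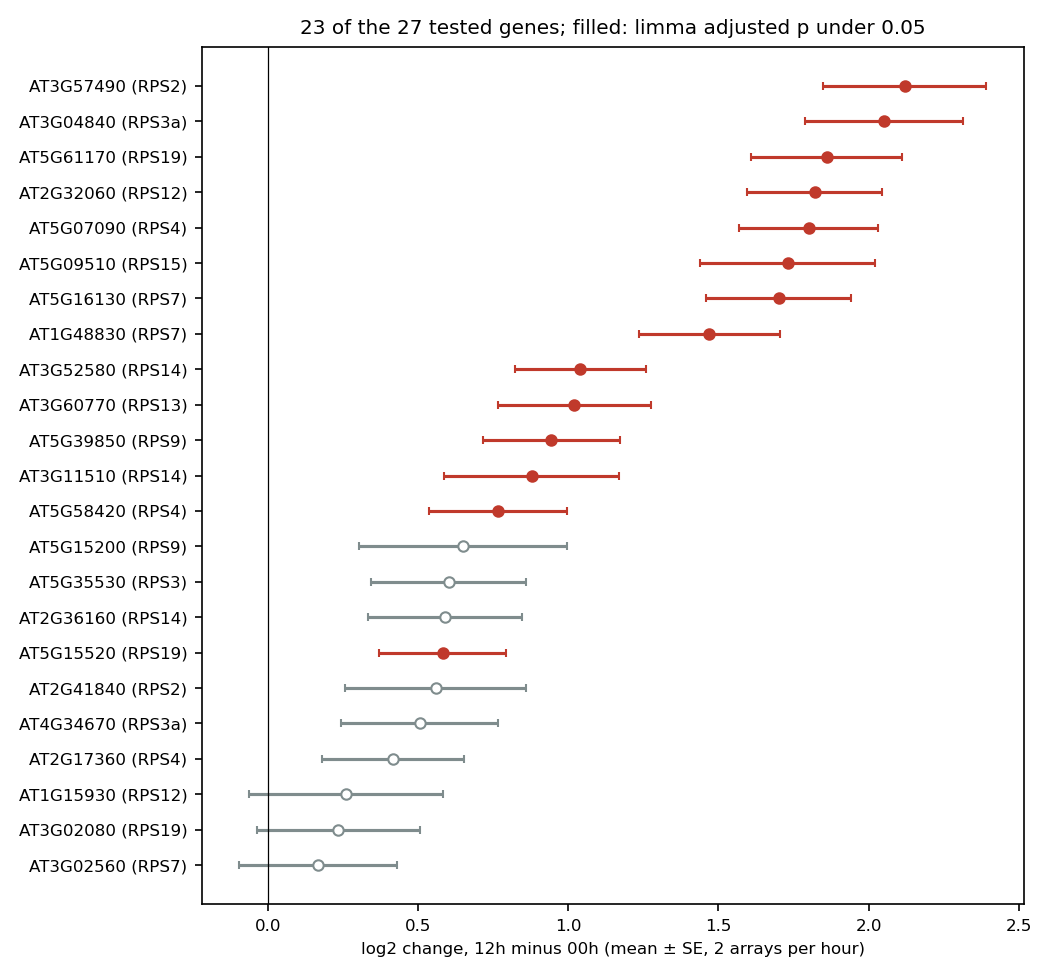
Log2 change at 12h minus 00h for 23 of the 27 tested genes, with the protein in brackets; points are means and bars are standard errors from limma (2 arrays per hour). Filled points are the 14 genes shown that rose, and every point lies right of 0, from 0.17 for AT3G02560 to 2.12 for AT3G57490.

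Proteins RPS2, RPS3 and RPS9 line the channel through which mRNA enters the small subunit, as known from yeast and human ribosomes. For RPS2, AT3G57490 had 38.3 and 44.5 at 00h, 403.0 at 04h, 416.7 at 08h, 174.3 and 308.7 at 12h, 53.3 at 16h and 39.7 at 20h. It was already near its highest value at 04h, and by 16h it had nearly returned to the 00h values. Its change was 2.12 ± 0.27 at 12h against 00h (adjusted p = 0.000198) and 2.87 ± 0.33 at 04h against 00h (adjusted p = 0.000254). Its paralogue AT2G41840 had 1915.9 and 1714.1 at 00h, 2033.7 at 04h, 2224.3 at 08h, 3009.0 and 2378.5 at 12h, 1685.3 at 16h and 1565.2 at 20h. Its 12h arrays lay above its 00h arrays, but the change of 0.56 ± 0.30 did not pass the test (adjusted p = 0.168). AT1G58380, also of RPS2, shares its probe set with close copies of itself, and that probe set averaged 2981 ± 209 at 12h and 915.7 ± 154 at 00h (SD, n = 2 each). It rose by 1.69 ± 0.29 (limma adjusted p = 0.0011).

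For RPS3, AT5G35530 averaged 1316 ± 64.1 at 12h and 865.6 ± 122 at 00h (SD, n = 2 each) and was highest at 08h, with 1653.5. Its change of 0.60 ± 0.26 did not pass the test (limma adjusted p = 0.0878). The probe set shared by AT2G31610 and AT3G53870, the remaining RPS3 genes, averaged 1821 ± 34.9 at 12h and 801.3 ± 0.42 at 00h (SD, n = 2 each) and rose by 1.17 ± 0.25 (limma adjusted p = 0.0042). For RPS9, AT5G39850 had 31.0 and 35.7 at 00h, 127.2 at 04h, 144.1 at 08h, 75.9 and 81.7 at 12h, 44.1 at 16h and 33.0 at 20h. Its 12h arrays stood between those of 08h and 16h, so its change at 04h (1.54 ± 0.28) was above its change at 12h (0.94 ± 0.23), both against 00h. Its paralogue AT5G15200 had 2335.5 and 3579.7 at 12h against 1554.1 and 2177.5 at 00h, a change of 0.65 ± 0.35 that did not pass the test. It changed by 0.71 between the A arrays and by 0.58 between the B arrays, and it passed with the hybridisation-control batch as a block (adjusted p = 0.00403).

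RPS3a, RPS14 and RPS13 belong to the platform side of the subunit, where mRNA leaves and where initiation factor eIF3 binds in yeast and mammals. For RPS3a, AT3G04840 had 572.3 and 669.2 at 00h, 1956.6 at 04h, 2432.2 at 08h, 2509.1 and 2716.4 at 12h, 1199.8 at 16h and 694.8 at 20h. It climbed up to 12h and had come most of the way back by 20h. The change at 12h against 00h was 2.05 ± 0.26 (limma adjusted p = 0.000198). AT4G34670, which encodes the same protein, had 1144.8 and 1163.9 at 00h, 1647.5 at 04h, 1788.3 at 08h, 1574.6 and 1716.8 at 12h, 1274.1 at 16h and 1146.3 at 20h. It was highest at 08h and covered a narrower span, 1.56 times between the highest and the lowest array. Its change of 0.50 ± 0.26 did not pass the test (adjusted p = 0.153).

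All 3 genes of RPS14 had their 12h arrays above their 00h arrays. AT3G52580 changed by 1.04 ± 0.22 and AT3G11510 by 0.88 ± 0.29 at 12h against 00h, and both rose (limma adjusted p = 0.00366 and 0.0342). The call of AT3G11510 was lost in 5 of 13 other settings, with p up to 0.247. AT2G36160 changed by 0.59 ± 0.26 and did not pass (adjusted p = 0.0935). AT3G52580 kept the most of its change at 16h, with 616.3 there, against 659.6 and 766.3 at 12h. RPS13 is represented by AT3G60770, with 1797.4 and 1693.5 at 12h against 895.7 and 805.7 at 00h. It rose by 1.02 ± 0.26 (adjusted p = 0.00938), a call lost in 2 of 13 other settings.

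RPS7 and RPS4 are proteins of the subunit's body, and human cells that lack RPS7 fail to process the precursor of 18S rRNA. AT5G16130 of RPS7 had 529.9 and 485.7 at 00h, 1332.3 at 04h, 1495.6 at 08h, 1594.6 and 1778.4 at 12h, 982.4 at 16h and 604.0 at 20h. AT1G48830, also of RPS7, had 490.2 and 499.7 at 00h, 914.8 at 04h, 1167.4 at 08h, 1534.0 and 1270.9 at 12h, 760.1 at 16h and 533.3 at 20h. Both rose, by 1.70 ± 0.24 (limma adjusted p = 0.000369) and by 1.47 ± 0.24 (adjusted p = 0.000777), with no overlap between 12h and 00h. AT3G02560, the remaining RPS7 gene, had 1417.8 and 1219.5 at 00h, 1385.1 at 04h, 1417.4 at 08h, 1420.9 and 1536.0 at 12h, 1084.4 at 16h and 1143.4 at 20h. Its values spanned 1.42 times between the highest and the lowest array. Its change at 12h against 00h was 0.17 ± 0.26 (adjusted p = 0.653), and it turned to -0.031 with each array scaled to the same median.

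For RPS4, AT5G07090 had 338.3 and 383.0 at 00h, 1118.3 at 04h, 1449.3 at 08h, 1318.5 and 1268.9 at 12h, 879.8 at 16h and 453.1 at 20h. It rose by 1.80 ± 0.23 (limma adjusted p = 0.00019) and was still well above its 00h values at 16h. AT5G58420 had 554.6 and 585.4 at 00h, 951.9 at 04h, 1002.4 at 08h, 889.5 and 1078.0 at 12h, 572.2 at 16h and 438.5 at 20h. It rose by 0.76 ± 0.23 (adjusted p = 0.0234), a call lost in 5 of 13 other settings with p up to 0.14, and at 16h it was back among its 00h values. AT2G17360 had 779.3 and 707.4 at 00h, 741.7 at 04h, 969.3 at 08h, 1097.4 and 902.6 at 12h, 715.0 at 16h and 559.9 at 20h. At 04h it lay between its 00h arrays, and its change at 12h of 0.41 ± 0.24 did not pass the test (adjusted p = 0.19).

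RPS12, RPS15 and RPS19 sit in the head of the subunit. Mutations of human RPS19 cause Diamond-Blackfan anaemia, a failure of red cell production, and RPS15 lies near the tRNA sites. AT2G32060 of RPS12 had 327.0 and 277.1 at 00h, 947.8 at 04h, 1163.6 at 08h, 1190.1 and 1020.1 at 12h, 418.3 at 16h and 264.9 at 20h. It rose by 1.82 ± 0.23 (limma adjusted p = 0.000158) and fell by 1.36 ± 0.28 (adjusted p = 0.0121) at 16h against 12h. AT1G15930, which encodes the same protein, had 2444.5 and 1748.8 at 00h, 1806.8 at 04h, 2001.0 at 08h, 2890.4 and 2121.1 at 12h, 1598.9 at 16h and 1558.6 at 20h. Its 12h and 00h arrays overlapped, and the change was 0.26 ± 0.32 (adjusted p = 0.562).

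For RPS19, AT5G61170 had 509.5 and 557.3 at 00h, 1510.6 at 04h, 1862.0 at 08h, 2163.1 and 1795.5 at 12h, 939.0 at 16h and 532.3 at 20h. At 20h it lay between its 00h values, and the change at 12h against 00h was 1.86 ± 0.25 (limma adjusted p = 0.00027). AT5G15520 had 113.3 and 133.8 at 00h, 181.1 at 04h, 192.1 at 08h, 199.5 and 185.1 at 12h, 118.5 at 16h and 112.5 at 20h. It rose by 0.58 ± 0.21 only narrowly (adjusted p = 0.0495), and the call was lost in 9 of 13 other settings. AT3G02080 had 1578.9 and 1298.8 at 00h, 1387.9 at 04h, 1537.8 at 08h, 1789.8 and 1590.4 at 12h, 1223.4 at 16h and 1205.2 at 20h. Its 12h arrays were above its 00h arrays by a small margin, with a change of 0.23 ± 0.27 (adjusted p = 0.531). AT5G09510 of RPS15 had 387.4 and 666.5 at 12h against 113.4 and 178.2 at 00h, and rose by 1.73 ± 0.29 (adjusted p = 0.00104).

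The probe set shared by AT2G09990 and AT5G18380 of RPS16, whose tail reaches the tRNA in the P site, averaged 2821 ± 285 at 12h and 2215 ± 435 at 00h (SD, n = 2 each). Its change of 0.36 ± 0.33 did not pass the test (limma adjusted p = 0.421). With the 4 shared probe sets added, an alternative chosen after seeing the data, 20 of 31 probe sets rose.

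The courses of paralogues of the same protein were compared through their ratio. For each of 17 pairs in 9 proteins, the log2 ratio of both probe sets was taken on each array. The same constant was added to every intensity first, as for the changes. Scaling of a whole array therefore nearly cancels where both probe sets are bright. Where a probe set is dim, as for AT3G57490 and AT5G39850 at 00h, the ratio removes such scaling only in part. The share of its variance over the day that a 24 h cosine explains was set against all 10080 distinct assignments of the 8 arrays to the labelled hours, an exact permutation test whose smallest possible p is 0.0004. The test is two-sided by construction, p-values are unadjusted over the 17 pairs, and pairs of the same protein share genes. Of the 17 pairs, 8 had p under 0.05. The difference between paralogues in the change at 12h against 00h has no test of its own, since an exact test of 2 arrays against 2 cannot go below 0.333. It exceeded 1 on the log2 scale in 9 pairs and had the same sign for the A arrays and the B arrays in 15. None of these counts was made for other pairs of probe sets, so they have no share to stand beside. By limma's F test 40.7% of all tested probe sets had a 24 h rhythm, so many other pairs could give such ratios.

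**Figure D2:**
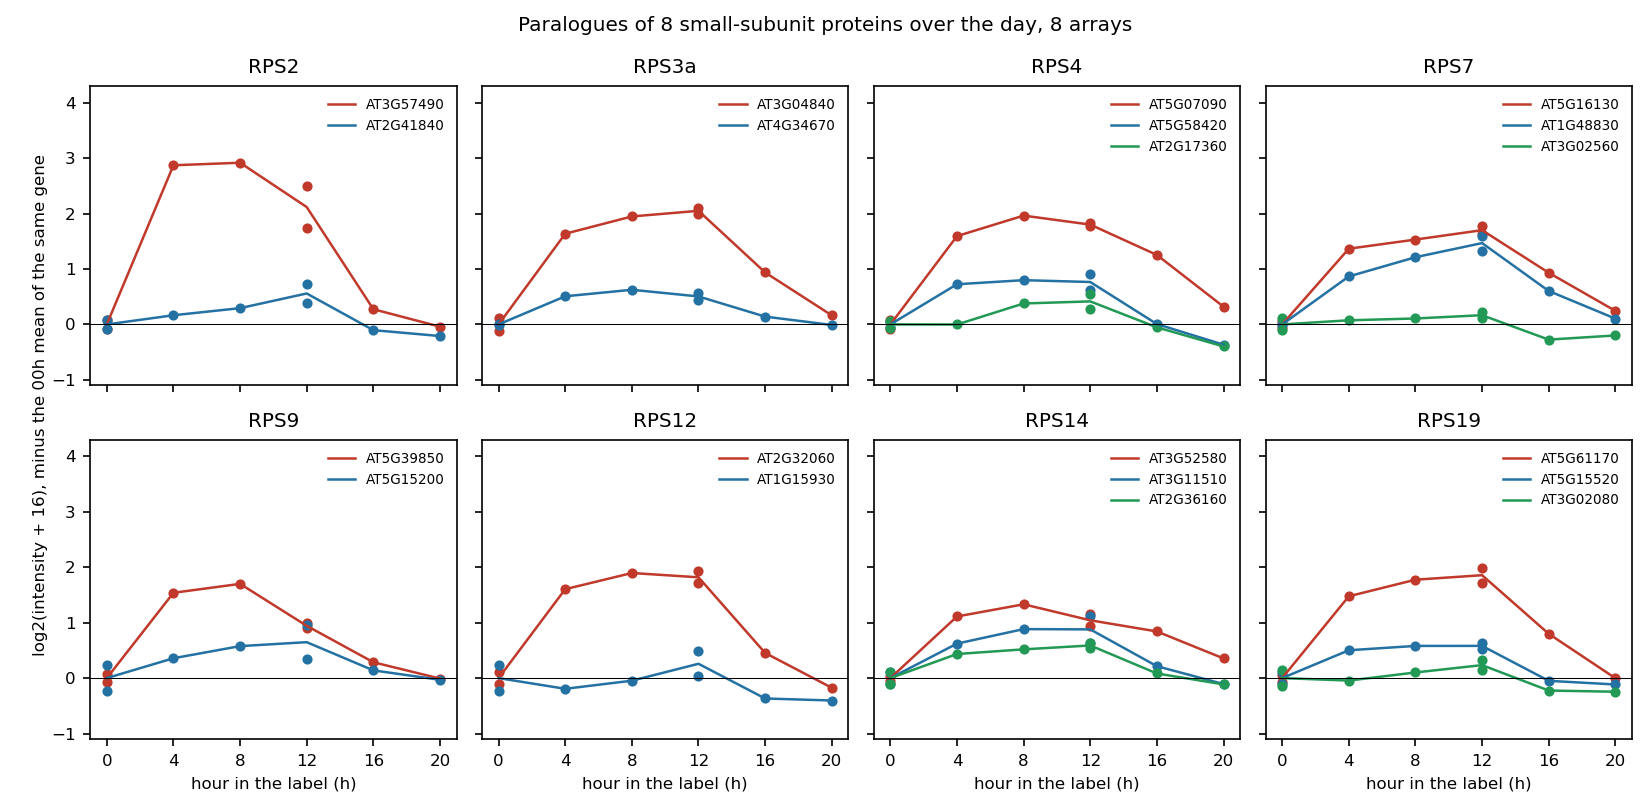
Course of the paralogues of 8 proteins, each as log2(intensity + 16) minus the 00h mean of the same gene, against the hour in the label; dots are arrays and lines join the means of each hour. In RPS2, RPS3a, RPS4, RPS7, RPS12 and RPS19 a gene changed by 1.39 log2 units or more above a paralogue at 12h against 00h, and in RPS14 by at most 0.45.

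In RPS7, the ratio of AT1G48830 to AT3G02560 had the smallest p of the 17 pairs (exact p = 0.000794), followed by that of AT5G16130 to AT3G02560 (exact p = 0.00238). The changes at 12h against 00h differed by 1.30 and 1.53 in these pairs, while AT5G16130 and AT1G48830 differed by 0.23 (exact p = 0.482). In RPS3a, AT3G04840 changed by 1.54 more than AT4G34670, with 1.65 between the A arrays and 1.44 between the B arrays (exact p = 0.00714). In RPS19, AT5G61170 changed by 1.62 more than AT3G02080 (exact p = 0.00833) and by 1.27 more than AT5G15520 (exact p = 0.00714). The ratio of AT5G61170 to each of the other two was higher on the arrays of 04h to 12h than on every other array.

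These 5 pairs stayed under 0.05 with a pseudocount of 1 or 64, with the replicate block and with each array left out in turn. The other 3 of the 8 did not. In RPS12, AT2G32060 changed by 1.56 more than AT1G15930 (exact p = 0.021), and p was 0.0587 without the 08h array. In RPS2, AT3G57490 changed by 1.56 more than AT2G41840 (exact p = 0.0409), with p up to 0.0968 and lost in 8 of 11 other settings. In RPS4, AT5G07090 changed by 1.04 more than AT5G58420 (exact p = 0.0492, lost in 6 of 11) and by 1.39 more than AT2G17360 (exact p = 0.0806). Without the 08h array 5 of the 17 pairs had p under 0.05.

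**Figure D3:**
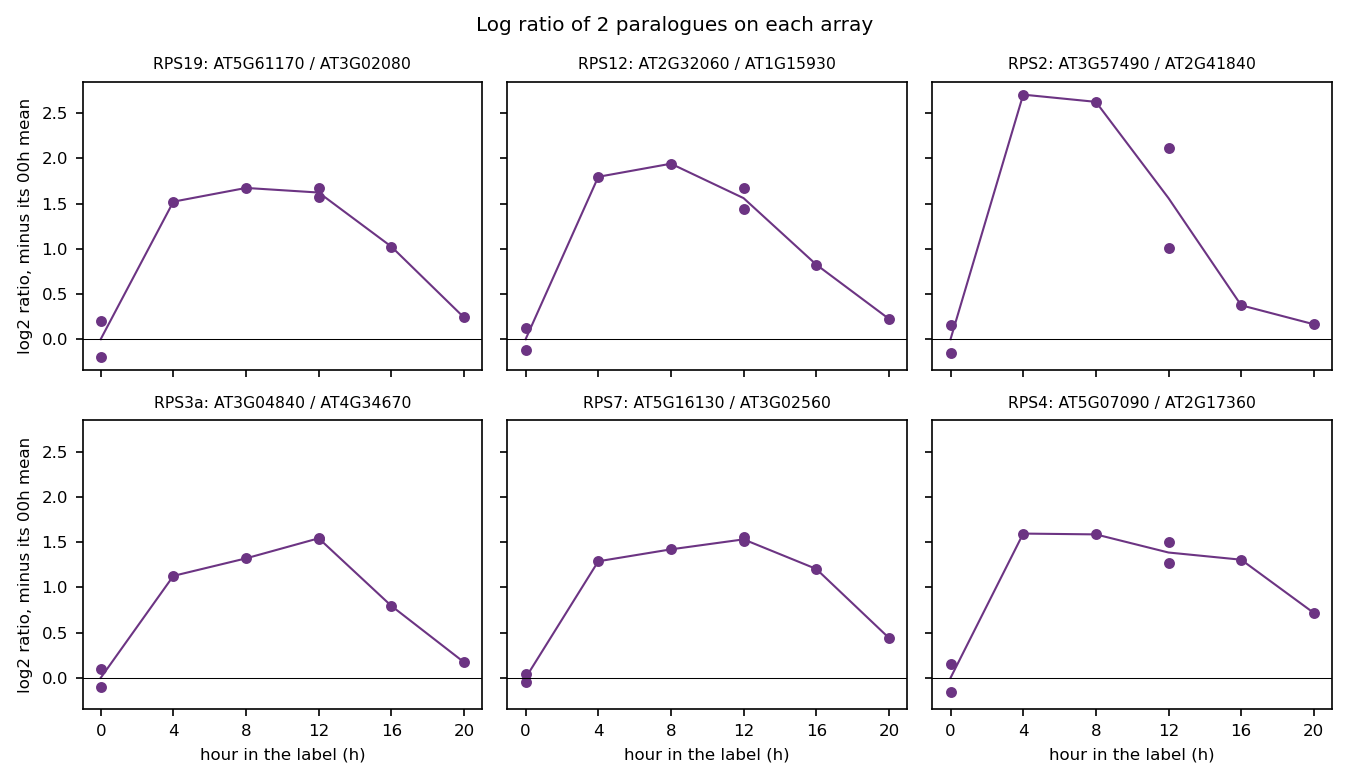
Log2 ratio of the paralogue pair that differed most in each of 6 proteins, minus its mean at 00h, on each of the 8 arrays (dots; lines join means of an hour). All 6 ratios were above their 00h values from 04h to 16h, and by 20h they had come most of the way back, except in RPS4, where 0.72 of a largest value of 1.60 remained.

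No pair of RPS14 or RPS9 passed. The 3 genes of RPS14 differed by at most 0.45 in their change at 12h (exact p = 0.327 for AT3G52580 against AT2G36160). In RPS9 the difference at 12h was 0.29 (exact p = 0.12), and it turned to -0.082 with a pseudocount of 64. These p-values do not show that the paralogues run alike.

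Over the whole day, 19 of the 27 genes (70.4%) had a 24 h rhythm by limma's F test of cosine and sine, against 40.7% of all tested probe sets. All 19 had a fitted peak between 7.67 h and 9.97 h, with a median of 8.89 h, and 15.1% of all tested probe sets were rhythmic with a peak from 6 to 10 h. Amplitudes from mid-level to peak had a median of 0.65 over the 27 genes, against 0.36 over all. The largest was 1.83 ± 0.22 for AT3G57490 (limma adjusted p = 0.000547), with a peak at 7.92 ± 0.41 h (SE). The latest peak was that of AT1G48830, at 9.97 ± 0.57 h. AT4G34670 and AT2G36160, which did not pass at 12h against 00h, were among the 19 (limma adjusted p = 0.0355 and 0.0305). Their rhythm calls were lost in 11 and 8 of 18 other settings. The highest of the 8 arrays was at 12h for 19 genes, at 08h for 7 and at 04h for 1. The lowest was at 00h for 14, at 20h for 12 and at 16h for 1. Since 12h and 00h hold 2 arrays each, they are favoured as extremes, and these counts were not made over all probe sets. By the median difference from 00h, the 27 genes stood at 0.93 at 08h and 0.88 at 12h.

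For the genes that rose at 12h, the step from 00h to 04h carried most of the difference. At 04h against 00h, 14 of the 27 genes rose and 0 fell (limma adjusted p; at an unadjusted p under 0.05, 16 were higher and 0 lower), with a median change of 0.86, against 15.6% of all tested probe sets that rose and 11.5% that fell. With each array scaled to the same median, 10.0% of all rose and 16.6% fell, and 12 of the 27 genes rose. Between 04h and 08h and between 08h and 12h 0 of the 27 passed the test, with 0 and 2 at an unadjusted p under 0.05. Over all probe sets 1.03% and 0.0879% passed in these steps. At 04h, 22 of the 27 lay above both 00h arrays, against 47.8% of all probe sets, and at 08h 23 did, against 47.5%. The arrays of 04h, 08h and 12h were all above those of 16h, 20h and 00h for 22 genes, against 20.5% of all probe sets. The 5 exceptions, of which AT1G15930, AT2G17360, AT3G02080 and AT3G02560 are described above, did not rise at 12h.

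From 12h to 16h every one of the 27 changes was negative, with a median of -0.66, against -0.0061 over all tested probe sets. By the test 4 fell, AT3G57490 and AT2G32060 among them, and 0 rose, against 4.43% of all tested probe sets that fell and 6.75% that rose, and 14 had an unadjusted p under 0.05. AT3G57490 fell by 1.84 ± 0.33 (limma adjusted p = 0.00671) and AT2G32060 by 1.36 ± 0.28 (adjusted p = 0.0121). This count depends on the setting, with 15 genes under the replicate block (9.12% of all probe sets), 11 with the hybridisation-control batch as a block (8.4%), 8 without 00h A or without 00h B, and 0 with no filter on low signal. At 20h against 16h and at 00h against 20h 0 of the 27 passed (limma; 4 and 1 at an unadjusted p under 0.05), against 0.00733% and 0.139% of all probe sets. At 20h, 13 genes lay below both 00h arrays and 6 above both, against 28.9% and 39.6% of all probe sets.

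Among the 17 genes that rose at 12h, the median share of the 12h change already present was 88.2% at 04h and 101% at 08h, and 30.3% remained at 16h and -0.92% at 20h. The 2992 probe sets that rose at 12h over the whole array had medians of 86.8%, 103%, 48.9% and 15.9% at these hours. AT5G39850 and AT3G57490 had passed their 12h value at 04h, with 163% and 136%. AT1G48830 had reached 59.0% at 04h and 82.6% at 08h. AT3G52580 and AT5G07090 kept 80.7% and 69.6% at 16h, whereas AT5G58420 kept 0.77%. The 10 genes that did not pass at 12h had a median difference from 00h of 0.15 at 04h, 0.34 at 08h, 0.52 at 12h, -0.079 at 16h and -0.20 at 20h.

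**Figure D4:**
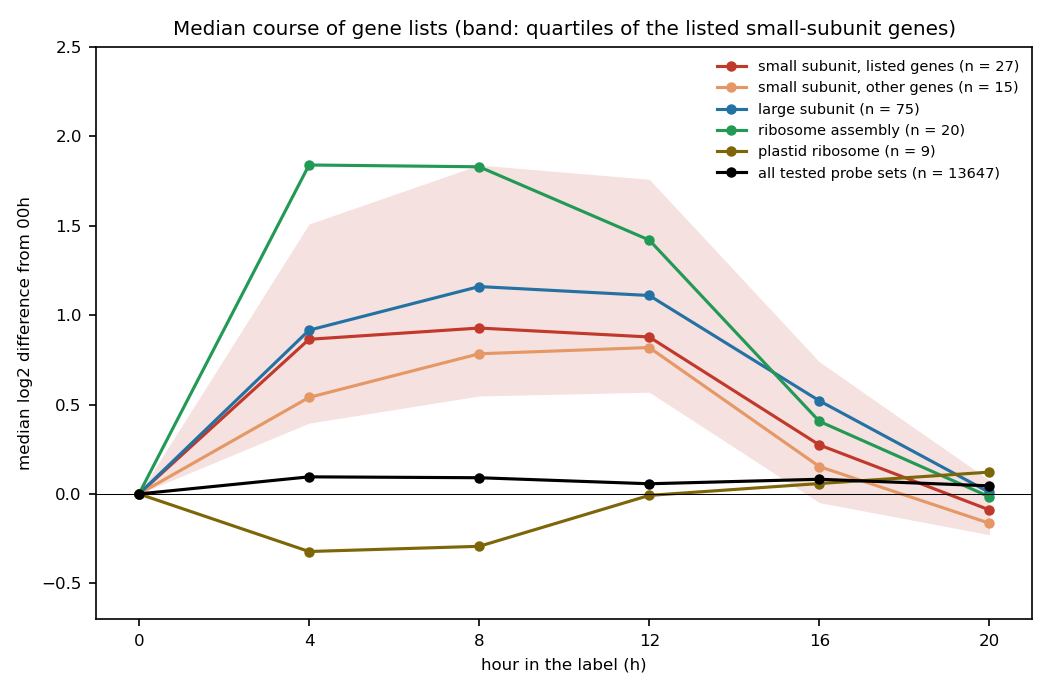
Median log2 difference from 00h of each list of genes at each hour, with the number of tested genes in the legend; the band spans the quartiles of the 27 listed small-subunit genes. The small-subunit median was 0.86 at 04h, 0.93 at 08h and 0.88 at 12h, below that of the ribosome assembly genes at those hours, and the plastid ribosome median was -0.0081 at 12h.

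The other genes of the pathway are given beside these as counts at 12h against 00h, where 21.9% of all tested probe sets rose and 18.6% fell. Of 15 tested genes for other small-subunit proteins, 8 (53.3%) rose and 0 fell, with a median of 0.82. AT2G45710 of RPS27 rose by 1.62 ± 0.21 and AT3G47370 of RPS20 by 1.43 ± 0.25 (limma adjusted p = 0.000214 and 0.00118), while AT5G47930, also of RPS27, changed by 0.12 ± 0.27. Of 75 tested large-subunit genes, 55 (73.3%) rose and 0 fell, with a median of 1.11, and 64 (85.3%, against 40.7% of all) were rhythmic with a median peak of 9.41 h. Of 20 tested genes for ribosome assembly, which process rRNA and fold it with proteins in the nucleolus, 18 (90.0%) rose and 0 fell, with a median of 1.42. Some, such as AT3G12860 (2.1 and 2.7 at 00h) and AT1G06720 (7.0 and 8.3), passed the filter on low signal only through their higher hours. Such genes could hardly have been found to fall, so the count and the median lean towards rises. YAO, needed for rRNA processing, had 82.5 and 88.8 at 12h against 21.9 and 28.3 at 00h, and rose by 1.31 ± 0.23 (adjusted p = 0.00136). PCN, encoding another nucleolar WD40 protein, changed by -0.055 ± 0.24 and did not pass. The assembly genes that rose were at 121% of their 12h change at 04h, against 88.2% for the 17 small-subunit genes, a difference that was not tested. The assembly genes in this share include those dim at 00h.

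Of 8 tested translation factor genes 2 (25%) rose and 0 fell, a share near that of all tested probe sets. They were AT5G12110, a subunit of elongation factor eEF1B, with 2.47 ± 0.24, and AT4G20980, a subunit of eIF3, with 1.22 ± 0.25 (limma adjusted p = 3.2e-05 and 0.00291). AT5G12110 had 6.1 and 3.3 at 00h against 86.3 and 112.8 at 12h. A probe set that dim at every hour would not have passed the filter, so AT5G12110 was tested only through its higher hours. Of 9 tested plastid ribosome genes 0 rose and 1 (11.1%) fell, with a median of -0.0081. The gene that fell, AT5G24490, was singled out after its values were seen, with a change of -2.56 ± 0.27. RAPTOR2, a subunit of the TOR complex, had 50.5 and 52.8 at 12h against 16.2 and 17.2 at 00h and rose by 1.05 ± 0.22 (adjusted p = 0.0035), and RAPTOR1 changed by -0.46 ± 0.22 (adjusted p = 0.126). Of 5 genes commonly used as references in Arabidopsis 0 passed in either direction.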

How the data were processed

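Rosette RNA was measured on 8 one-colour arrays. The deposited values are intensities made with MAS5, per the submitters' processing notes; the trimmed mean is 100 on every array, so differences in total mRNA are removed. They were turned into log2(value + 16) in Python 3.11.15 and R 4.3.3, without the 64 control probe sets and the dimmest 40% by mean. limma 3.58.1 (lmFit, contrasts.fit, eBayes with trend) was fitted with hours as groups (2 residual degrees of freedom) and with a 24 h cosine and sine (5); hours with 1 array were assumed to vary like 12h and 00h. P-values were adjusted by Benjamini-Hochberg over all 13647 probe sets. The scripts were tested on simulated data. Alternatives were pseudocount, filter, scaling, trend, replicate block, hybridisation-control batch and arrays left out. Names of probe sets come from the array platform's table, and proteins by standard Arabidopsis nomenclature. Values on all arrays are given, among the genes reported here, for those of the 5 highest and 5 lowest changes and for the 6 proteins whose paralogues differ most. AT5G39850 of RPS9 is given in the same way, outside that rule. The genes and lists were chosen with earlier results of these data known, and the large-subunit and plastid lists were written after the files were opened. Some genes enter the counts but are not reported by name here. Motifs in promoters and a mitochondrial list were not analysed here. The number of arrays limits the precision.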

Additional observations from a re-analysis of the deposited data

How the results depend on the processing

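For 12h against 00h the number of small-subunit genes that rose stayed between 13 and 23 in all settings run, and 0 fell in any. It was 13 without 00h A, 00h B or 12h A and 15 without 12h B. For 04h against 00h it stayed between 10 and 18 and for the rhythm between 15 and 24. The shares over all probe sets move with the setting too and are not given for each. At 04h against 00h, for example, 15.6% of all rose in the main setting and 10.0% with each array scaled to the same median. Of the 17 genes that rose at 12h, 12 did so in every setting, and 5 did not, AT3G11510, AT3G60770, AT5G15520 and AT5G58420 among them. The number that fell at 16h against 12h moved from 4 to 15 under the replicate block, to 11 with the hybridisation-control batch as a block and to 0 with no filter, and ran from 3 to 8 with arrays left out; the cause was not tested. The number of paralogue pairs under 0.05 ran from 5 to 9 with arrays left out. AT3G02560 at 12h against 00h turned to -0.0307 with each array scaled to the same median. Letters A and B are not said to mark shared material. A minus B at 12h correlated with A minus B at 00h at 0.297 over probe sets. At these hours the A arrays are also those with high hybridisation controls, so letter and batch cannot be told apart there. For 12h against 00h the replicate block and the hybridisation-control batch therefore gave the same result, 23 genes, although they are counted as separate settings. Each gene has 1 named probe set, so averaging probe sets could not be run.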

Other observations

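Among the 27 tested small-subunit genes, the change at 12h against 00h was larger for dimmer probe sets, with Spearman's rho of -0.535 and Pearson's r of -0.393 against mean log2 intensity. Among 75 large-subunit genes rho was -0.31, and over all 13647 tested probe sets the size of the change had a rho of 0.147. These are descriptions across probe sets that share the same 8 arrays. A probe set's signal also depends on its probes, so they do not order the genes by transcript level, and the part of probe response in them was not tested.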
